A study of Homo sapiens with 2 samples.

Results

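The genes of glycolysis and of the pentose phosphate pathway were compared between MDA-MB-231 cells given 2 Gy on each of 4 days and untreated MDA-MB-231 cells (0 Gy), with no replicate arrays. MDA-MB-231 is an established human breast cancer line. Both cultures were grown on Matrigel, a laminin-rich extracellular matrix (lrECM), so the irradiation was the only labelled difference between them. The members were taken from a list of 31 genes by name: any probe named for a listed gene, by its current or former symbol, was used unless the scanner had marked the spot as poor. This gave 38 probes for 30 genes, out of 24456 usable gene probes for 19372 named genes on the array, and the phosphoglycerate mutase gene PGAM1 was not analysed here. ENO2, SLC16A1 and SLC16A3 were named from the scanner file alone and the other genes from the platform annotation.

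Glycolysis splits glucose into pyruvate. Glucose enters through facilitative transporters, is phosphorylated and cleaved in the preparatory steps, and yields ATP and NADH in the payoff steps, after which lactate dehydrogenase can convert pyruvate to lactate for export. The pentose phosphate pathway branches off at glucose 6-phosphate: its oxidative arm makes NADPH, and its non-oxidative arm exchanges sugar phosphates between ribose synthesis and glycolysis. Many cancer cells run glycolysis at a high rate even with oxygen present, and several of the genes are known targets of the hypoxia-inducible factor HIF-1.

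Each array is a 1-colour Toray 3D-Gene chip, on which a spot gives 1 brightness value per sample. The irradiated array was dimmer as a whole, with a median gene probe of 51.9 brightness units against 57.9 on the untreated array. The 95th percentile of the blank spots was 16.0 on the irradiated and 14.2 on the untreated array, and all 38 member probes lay above it on both. The background was taken off by normexp in limma (offset 50), and the signals were quantile-normalized between the arrays and averaged on the log2 scale over the probes of a gene. The normalized ratio is irradiated over untreated. The offset pulls the ratio of a dim probe towards 1. A gene was called lower or higher where this ratio reached 1.5-fold. There was 1 array per condition, so no difference could be set against a spread between cultures, no test was possible, and every ratio describes these 2 arrays. Fewer cells of a type and less RNA per cell cannot be told apart in such bulk samples. The mesenchymal marker VIM was bright, at 26732 and 28208 units on the irradiated and the untreated array for its brightest probe, and the estrogen receptor gene ESR1 was near the blank spots at 13.3 and 13.4. Of the 6 luminal and epithelial markers checked, 4 were above the blank spots on both arrays, among them the epithelial cadherin gene CDH1 at 155 and 179, and PGR was not. Of the 6 markers of other cell types 5 were above the blank spots. Of all gene probes, 91.5% on the irradiated and 93.4% on the untreated array exceeded the 95th percentile of the blank spots. CD3E, PECAM1, CDH5 and COL1A1 were dimmer than the median gene probe on both arrays. PDGFRB, at 39.6 and 99.2 in column 92, was called lower at a ratio of 0.606. It was not called with a correction for position on the chip (0.699), and its ratio in the authors' values was 0.345. The part of other cells in the results was not tested. A difference across the chip touches these results. Over all detected probes the median log2 difference was -0.10 in the last 26 of the 104 columns and 0.03 in the others, so the array column is given for each member.

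Most members had a lower signal on the irradiated array, by small amounts. Of the 30 genes, 21 were lower and 9 higher, whereas 44.5% of the 17789 genes detected on both arrays were lower. The median log2 difference of the members was -0.18 (a ratio of 0.88), beside 0.01 over all genes. PGK1, SLC2A3 and PFKFB4 were called lower, 3 of 30 members, and 1.01% of all genes were called lower. None of the members was called higher, and 0.298% of all genes were. The ratios ran from 0.562 for PGK1 to 1.26 for RPE. Among genes brighter than the 75th percentile of signal, where 21 members lay, 17 members and 45.1% of all such genes were lower.

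**Figure D1:**
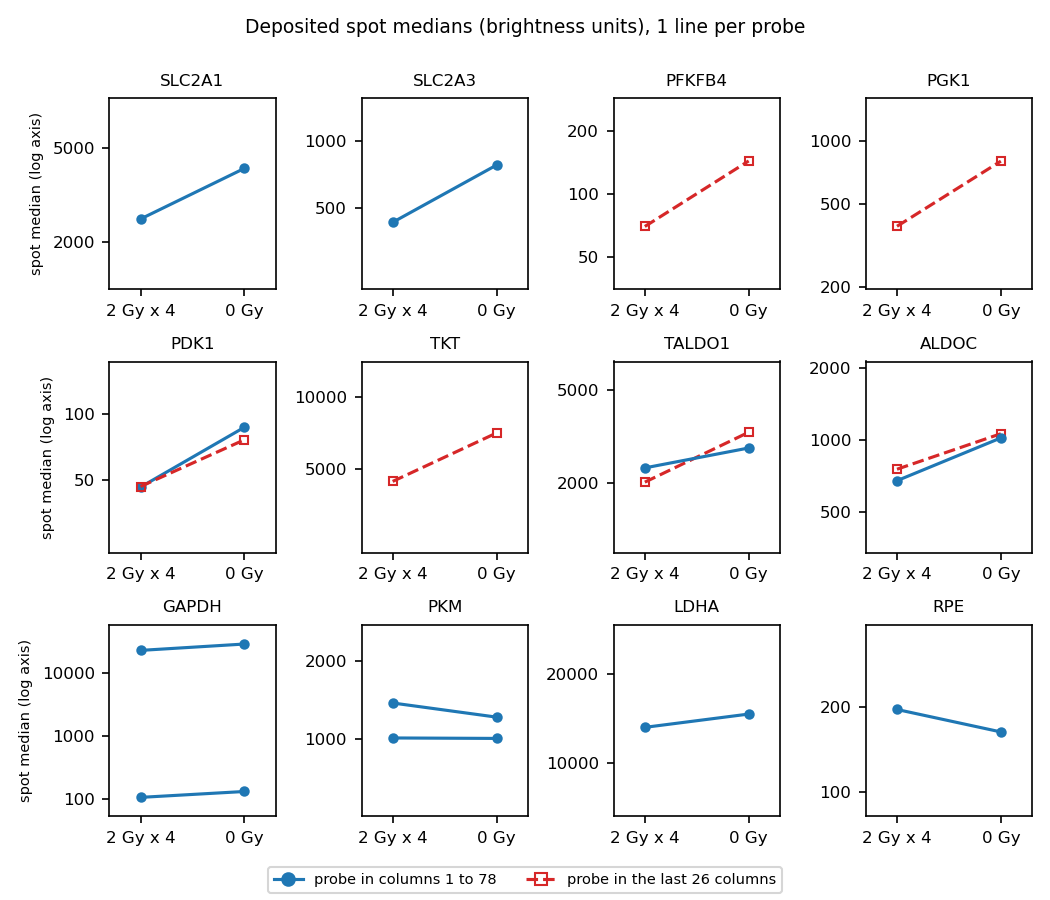
Spot medians as deposited (brightness units, log axis; panels differ in range) of the probes of 12 member genes on the array of irradiated cells (2 Gy x 4) and of untreated cells (0 Gy), with 1 line per probe. Over all detected probes the median spot ratio was 0.954. SLC2A1, SLC2A3, PFKFB4, PGK1, PDK1, TKT, ALDOC and the column 94 probe of TALDO1 lie well below it. The PKM and RPE probes lie above it.

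The glucose transporters were lower, at array positions where the surrounding probes were not. SLC2A1 encodes GLUT1, the basal glucose transporter of most cells. Its probe in column 56 read 2497 units in irradiated cells and 4109 units in untreated cells. The authors' processed values were 1381 and 1968 in the same order, a ratio of 0.702, and the normalized ratio was 0.700. SLC2A3 encodes GLUT3, a transporter with high affinity for glucose. Its probe, also in column 56 but in another block, read 433 units in irradiated and 782 units in untreated cells. The normalized ratio of 0.633 and the ratio of 0.631 in the authors' values (233 over 369) were close. The detected probes within 11 rows and 8 columns had a median ratio of 1.02 around SLC2A1 and 0.999 around SLC2A3, and taking this local median off left 0.687 and 0.634. SLC2A3 stayed past 1.5-fold after this step. SLC2A1 stayed just short of it, but reached it at 0.659 with median scaling between the arrays in place of quantile normalization.

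In the preparatory steps of glycolysis 9 of 11 genes were lower, with a median ratio of 0.887, but only PFKFB4 was called. PFKFB4 encodes a bifunctional enzyme that sets the level of fructose 2,6-bisphosphate, an activator of phosphofructokinase. Its single probe read 70.0 units in irradiated cells and 144 units in untreated cells, a normalized ratio of 0.642 and a ratio of 0.495 in the authors' values (31.3 over 63.3). That probe lies in column 102, where the detected probes around it had a median ratio of 0.818, and with this local median taken off the ratio was 0.785. PFKFB3 encodes the isoenzyme with the strongest kinase activity, and its log2 difference was 0.00. Its probe in column 78 read 444 units in irradiated and 510 units in untreated cells (authors' values 239.6 and 239), a normalized ratio of 0.971. Its probe in column 45 read 57.6 and 61.0 in the same order (authors' values 24.4 and 23.4), a ratio of 1.03.

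The aldolases followed. ALDOC, the brain-type aldolase, had probes at opposite sides of the array that were both lower. The probe in column 21 read 676 units in irradiated and 1019 units in untreated cells, and the probe in column 101 read 755 and 1061 in the same order. Their normalized ratios were 0.741 and 0.794, so the lower one was not at the edge. ALDOA, the muscle-type aldolase and main form in most cells, had 6518 units in irradiated and 9505 units in untreated cells in column 101, a ratio of 0.808. With the local trend taken off, ALDOC had a ratio of 0.783 and ALDOA of 0.841.

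The hexokinase and phosphofructokinase genes differed less. HK1 encodes the hexokinase found in most tissues, and its normalized ratio was 1.03 in column 10 (216 units in irradiated and 230 units in untreated cells; authors' values 112.6 and 104.4). HK2, the inducible isoenzyme, had ratios of 0.931 in column 10 and 0.972 in column 24, which averaged to 0.951. Of the phosphofructokinase subunits, which form the committed step, the muscle form PFKM had a ratio of 0.835, the platelet form PFKP 0.887 and the liver form PFKL 0.960, from probes in columns 72 and 78. The PFKM probe read 268 units in irradiated and 358 units in untreated cells, and the PFKP probe read 2238 and 2806 in the same order. GPI, which interconverts glucose and fructose 6-phosphates, had a ratio of 0.863 in column 65 (715 units in irradiated and 923 units in untreated cells). TPI1, which interconverts the triose phosphates, had 4796 units in irradiated and 6084 units in untreated cells in column 49, a ratio of 0.924. With the local trend taken off, all 11 genes of these steps had ratios below 1, between 0.783 and 0.978, while 49.2% of all genes were then below 1.

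In the payoff steps 4 of 5 genes were lower, with PGK1 far below the rest. PGK1 encodes phosphoglycerate kinase, the first ATP-yielding enzyme of the pathway. Its single probe read 391 units in irradiated cells and 799 units in untreated cells, and the authors' values were 209.8 and 378. The normalized ratio was 0.562, the lowest of the members, and the ratio in the authors' values was 0.555. The probe lies in column 102, among probes with a median ratio of 0.823. With this local median taken off, the ratio was 0.683, and 0.900 when the same was done to the authors' values, so that PGK1 was called in neither.

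GAPDH, which oxidizes glyceraldehyde 3-phosphate and often serves as a loading control, had 22398 units in irradiated and 28242 units in untreated cells on its brighter probe. The normalized ratio was 0.856 on that probe and 0.921 on a dimmer one (106 and 131 units), in columns 58 and 44. ENO1, the enolase of most cells, had 21392 units in irradiated and 23074 units in untreated cells in column 62, a ratio of 0.971. Its ratio in the authors' values was 1.07 (11893 over 11076), so its direction depended on the scaling. ENO2, the neuronal enolase, had a ratio of 0.873 in the same column (915 units in irradiated and 1166 units in untreated cells). PKM encodes the pyruvate kinase of most proliferating cells and stood on the other side. Its probes in columns 27 and 26 had normalized ratios of 1.24 and 1.11, from 1381 and 1012 units in irradiated cells against 1218 and 1008 units in untreated cells. The authors' values were 760.6 and 555.4 in irradiated cells against 579.1 and 478.2 in untreated cells. The probes around them had median ratios of 1.09 and 1.05, and without this local trend PKM had a ratio of 1.10.

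The lactate dehydrogenase genes had normalized ratios above 1, although that of LDHA was 0.973 with median scaling in place of quantile normalization. LDHA, the subunit that favours lactate formation, read 13230 units in irradiated and 14672 units in untreated cells, and its normalized ratio was 1.09. LDHB, the heart-type subunit, read 5863 units in irradiated and 6224 units in untreated cells, also with a ratio of 1.09 (authors' values 3254 and 2983). For LDHA the ratio in the authors' values was 1.04 (7352 over 7041). Both probes lie in column 68.

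PDK1 and PDK3 encode kinases that inhibit pyruvate dehydrogenase and so hold pyruvate back from the mitochondrion. The PDK1 probes were dim and lower at both places. The probe in column 73 read 46.4 units in irradiated and 87.1 units in untreated cells, and that in column 104 read 46.7 and 76.4 in the same order. Their mean normalized ratio was 0.758, and the authors' values, which carry no offset, gave 0.550 (18.2 over 35.9 in column 73 and 18.4 over 30.8 in the other). In the authors' values 4 of 30 members were called lower (PGK1, SLC2A3, PFKFB4 and PDK1), 6.49% of all genes were, and 20 members and 44.3% of all genes had any lower signal. PDK3, in column 104 with 80.1 units in irradiated and 88.9 units in untreated cells (authors' values 36.9 and 36.8), had a log2 difference of 0.00.

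The monocarboxylate transporters carry lactate across the plasma membrane. SLC16A3, which encodes the lactate exporter MCT4, read 1377 units in irradiated and 1765 units in untreated cells in column 71 (authors' values 758 and 842), a ratio of 0.863. SLC16A1, which encodes MCT1, read 26.9 units in irradiated and 25.3 units in untreated cells in column 30 (authors' values 7.3 and 6.26). At that level, close to the blank spots, its ratio of 1.04 carries little information.

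**Figure D2:**
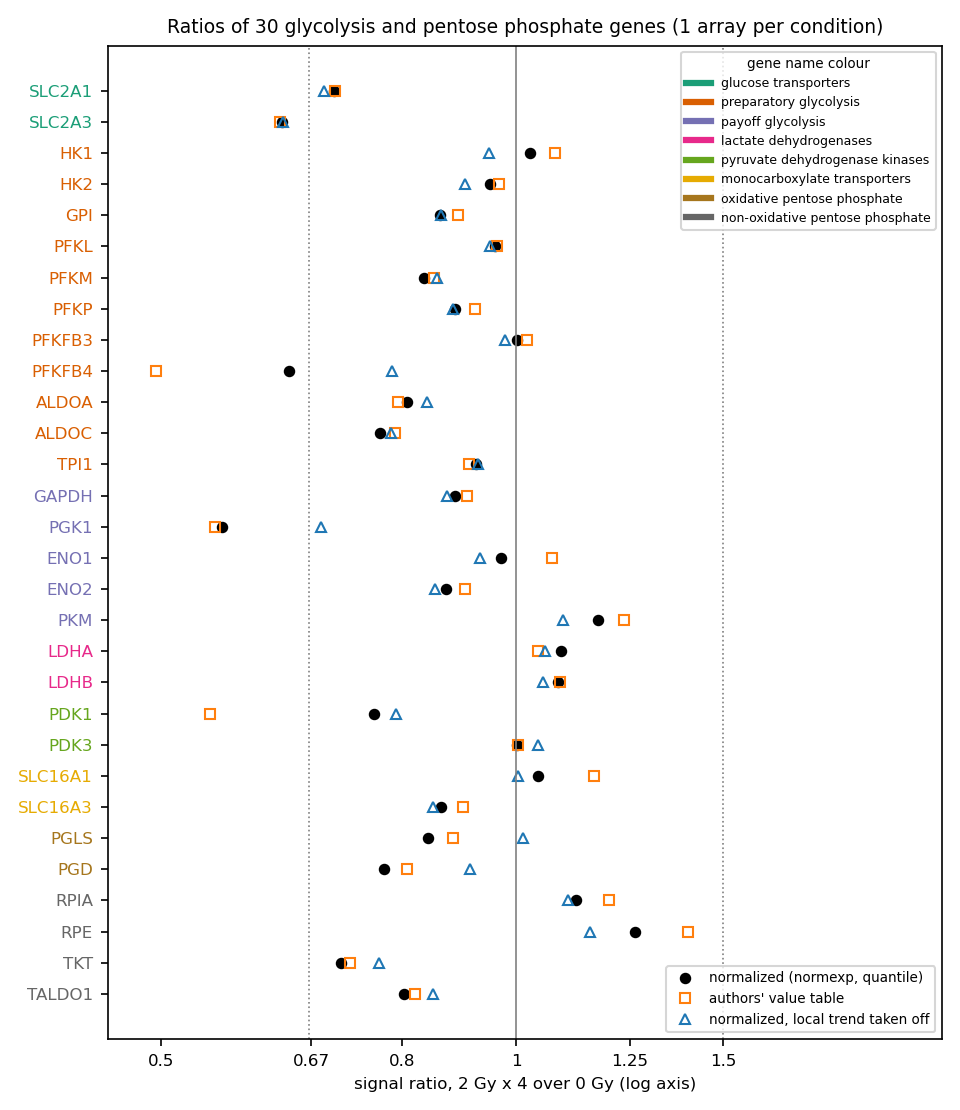
Signal ratio of the 30 member genes, 2 Gy x 4 over 0 Gy (log axis), from the normalized signals (filled circles), the authors' value table (squares) and the normalized signals with the local trend across the chip taken off (triangles). The dotted lines mark 1.5-fold in either direction, and gene names are coloured by role. SLC2A1 and SLC2A3 hardly move between the settings, whereas PFKFB4, PGK1, PGLS and PGD move towards 1 or past it when the local trend is taken off.

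Both measured enzymes of the oxidative pentose phosphate arm were lower, and both lie at the edge of the array. PGD encodes 6-phosphogluconate dehydrogenase, which makes NADPH. It read 1304 units in irradiated and 1864 units in untreated cells, a normalized ratio of 0.773 (authors' values 718 and 889). PGLS, the lactonase of the step before, read 1417 and 1849 in the same order, a ratio of 0.842 (authors' values 781 and 882). PGD lies in column 95 and PGLS in column 102. With the local trend taken off, the ratios were 0.913 for PGD and 1.01 for PGLS, and the ratios were 1.22 and 1.32 in the authors' values treated in the same way. The direction for this arm depended on the correction for position.

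The non-oxidative arm was divided. TKT, the transketolase, read 4421 units in irradiated and 7070 units in untreated cells (authors' values 2452 and 3390), a ratio of 0.710. TALDO1, the transaldolase, had a ratio of 0.803 over probes that differed. The probe in column 94 read 2027 units in irradiated and 3303 units in untreated cells, with a ratio of 0.698, while the probe in column 53 read 2330 and 2832 in the same order, with a ratio of 0.923. The edge probe was thus the lower of the pair. The TKT probe lies in column 89, and with the local trend taken off the ratios were 0.765 for TKT and 0.851 for TALDO1. In the authors' values treated in the same way, the ratios were 0.866 for TKT and 0.955 for TALDO1.

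RPE and RPIA, which convert ribulose 5-phosphate to xylulose and ribose 5-phosphates, were higher. RPE in column 20 read 196 units in irradiated and 163 units in untreated cells, a ratio of 1.26, the highest of the members, and the authors' values were 101.6 and 72.5. RPIA in column 52 read 241 and 232 in the same order, a ratio of 1.12 (authors' values 126.7 and 105.6). Around RPE the probes had a median ratio of 1.09, and without this local trend RPE had a ratio of 1.16 and RPIA of 1.11.

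The sizes differed between members at the edge of the array and the rest, and most members stayed lower when position was taken into account. Of the 38 member probes 10 (26.3%) lie in the last 26 columns, as do 24.4% of all detected probes. The 20 genes with every probe outside those columns had a median ratio of 0.956, with 12 lower, and the 10 genes with a probe inside had a median of 0.770, with 9 lower. Over all detected probes the median ratio was 0.9355 inside those columns and 1.02 outside. The share of all genes with a probe inside that were lower was not counted, so the 9 have no such share beside them. With only the probes outside those columns, 15 of 23 members were lower, beside 34.2% of all genes. With the local trend taken off every probe, 22 of 30 members were lower and the median log2 difference was -0.16, beside 0.00 over all genes. Only SLC2A3 was then called lower, and 0.444% of all genes were. In the authors' values with the same correction 22 of 30 members and 48.9% of all genes were lower, and SLC2A3 and PDK1 were called, with 3.66% of all genes. Subtracting the local background of each spot moved several members across 1: PFKM, PFKP, ALDOA, GAPDH, ENO2 and SLC16A3 were then above it, and HK1, PFKFB3, PKM, LDHB, SLC16A1 and RPE below it. That local background followed the spots themselves, with a rank correlation of 0.909 on the irradiated and 0.928 on the untreated array across gene probes, which are not independent replicates.

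**Figure D3:**
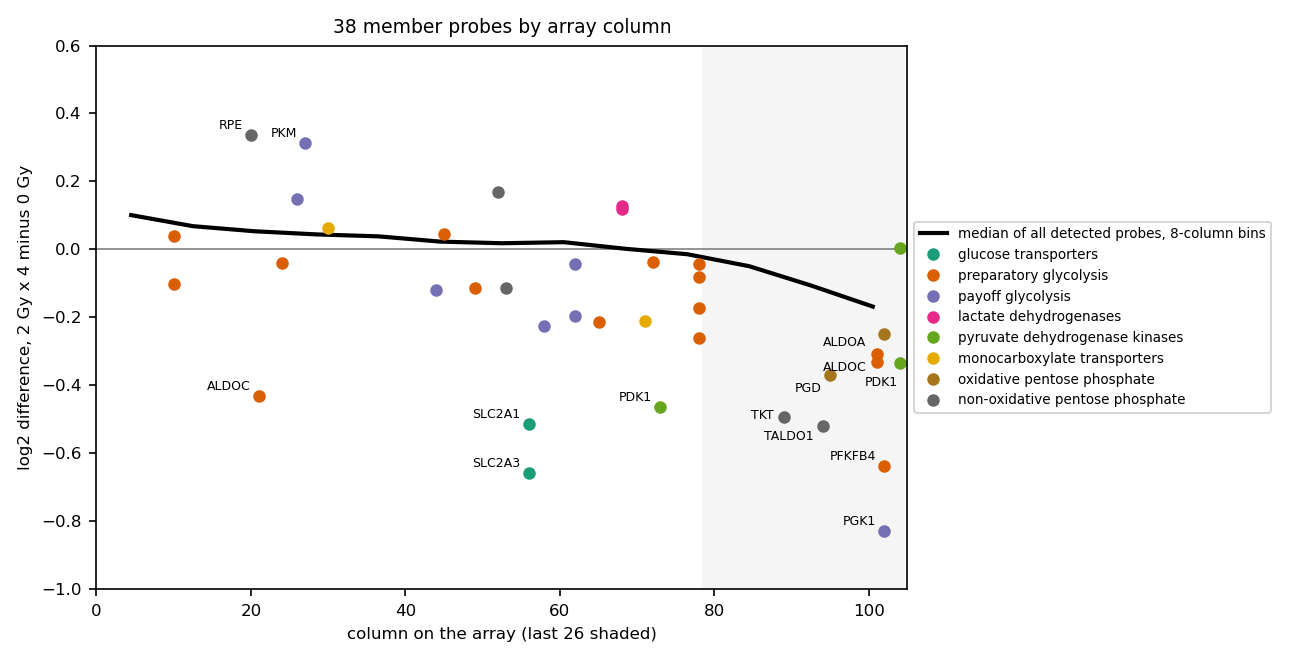
Log2 difference (2 Gy x 4 minus 0 Gy) of the 38 member probes by their column on the array, coloured by role, with the median of all detected probes in bins of 8 columns (black line). Probes with a difference over 0.3 are named, and the last 26 columns are shaded. The black line falls towards the right edge. The probes of SLC2A1, SLC2A3, PDK1 (column 73) and ALDOC (column 21) lie well below it outside the shaded columns.

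The other genes of glycolysis, glucose transport, the pentose phosphate pathway and gluconeogenesis had median ratios close to 1. Of 18 other glycolytic isoforms and mutases 16 were detected on both arrays, 9 lower and 7 higher. Their median ratio was 0.992 and none was called. In the authors' values, which carry no offset, 3 of them were called lower and 2 higher, beside 1154 and 704 of all 17789 genes. TIGAR, a fructose 2,6-bisphosphatase, had the largest normalized difference, with a ratio of 1.42 in column 93. PGAM2, the muscle phosphoglycerate mutase, had a normalized ratio of 0.782. The ratios in the authors' values were 1.72 for TIGAR and 0.639 for PGAM2. All 14 other glucose and monocarboxylate transporters were detected, 5 lower and 9 higher, with a median ratio of 1.02. SLC2A6 had a ratio of 1.37 and SLC2A14 of 1.34, and in the authors' values the ratios were 1.62 and 1.45 in the same order. SLC2A14 encodes GLUT14, a close copy of GLUT3, and its probe read 654 units in irradiated and 524 units in untreated cells, while the SLC2A3 probe was lower in irradiated cells. The SLC2A14 probe lies in column 10. Transcripts of these paralogs may bind each other's probe, so the separate ratios are uncertain. Of 8 other pentose phosphate and ribose genes 7 were detected, with 3 lower and 4 higher and a median log2 difference of 0.01. The phosphoribosyl pyrophosphate synthetases PRPS1 and PRPS2, both in column 31, had ratios of 1.18 and 1.10. With the local trend taken off, these ratios were 1.09 and 1.05. Of 5 gluconeogenesis genes 3 were lower, with a median ratio of 0.983. PC, the pyruvate carboxylase, had 1.19 in column 16 and FBP1, a fructose bisphosphatase, had 0.950 in column 61. With the local trend taken off, the ratios were 1.06 for PC and 0.990 for FBP1. Of 3 glucose-responsive genes, TXNIP, which restrains glucose uptake and is induced by glucose, read 9587 units in irradiated and 15365 units in untreated cells in column 84, a ratio of 0.745. ARRDC4 of the same family had 0.903.

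The promoters of members with low ratios and of a member with a normalized ratio above 1 were set side by side for the core motif of HIF binding, searched as ACGTG or GCGTG on either strand in the 250 bases before the RefSeq transcription start. PGK1, PFKFB4 and SLC2A1 had the low ratios and LDHA the other. Capitals mark the matches, and each sequence is printed 5' to 3' on the strand of the gene.

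PGK1 (GRCh38.p14, chrX:78103998-78104247, plus strand): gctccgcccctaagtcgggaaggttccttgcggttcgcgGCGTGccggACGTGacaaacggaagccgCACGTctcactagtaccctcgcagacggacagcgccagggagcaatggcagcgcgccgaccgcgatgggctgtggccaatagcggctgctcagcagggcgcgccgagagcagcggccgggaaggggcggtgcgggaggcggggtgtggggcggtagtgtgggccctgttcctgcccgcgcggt
PFKFB4 (GRCh38.p14, chr3:48556804-48557053, minus strand): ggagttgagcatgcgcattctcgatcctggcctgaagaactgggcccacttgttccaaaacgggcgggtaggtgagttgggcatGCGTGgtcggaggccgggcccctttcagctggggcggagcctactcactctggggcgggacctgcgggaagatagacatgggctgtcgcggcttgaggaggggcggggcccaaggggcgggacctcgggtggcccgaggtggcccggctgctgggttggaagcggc
SLC2A1 (GRCh38.p14, chr1:42958869-42959118, minus strand): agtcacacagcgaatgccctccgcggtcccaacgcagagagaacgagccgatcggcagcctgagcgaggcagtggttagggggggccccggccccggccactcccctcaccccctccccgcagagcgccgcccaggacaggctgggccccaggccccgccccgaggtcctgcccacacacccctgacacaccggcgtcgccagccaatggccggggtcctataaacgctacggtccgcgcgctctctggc
LDHA (GRCh38.p14, chr11:18394313-18394562, plus strand): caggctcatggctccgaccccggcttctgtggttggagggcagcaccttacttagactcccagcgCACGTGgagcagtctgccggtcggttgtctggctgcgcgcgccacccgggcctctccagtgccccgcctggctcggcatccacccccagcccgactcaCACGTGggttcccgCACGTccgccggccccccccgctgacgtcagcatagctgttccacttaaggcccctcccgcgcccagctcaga

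The PGK1 window held 3 matches, PFKFB4 1, SLC2A1 none and LDHA 5, where matches on opposite strands may overlap. The members with low ratios and LDHA were not separated by these letters in this window. Of 29 members with a RefSeq promoter 15 (51.7%) held a match, beside 52.2% of the promoters of genes detected on both arrays and 43.1% of all 27305 promoters. SLC2A3 and SLC16A1 were not searched.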

How the data were processed

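Total RNA of MDA-MB-231 cells on lrECM, irradiated (2 Gy x 4) or untreated, was amplified, labelled with Cy5 and hybridised to 1 Toray 3D-Gene Human oligo chip each. The scanner files that the authors deposited hold the median intensity of each spot and of its local background at 635 nm on a linear scale, neither background-subtracted nor scaled. The deposited value table holds processed intensities; the steps behind them are not given in the sources used here. Against the scanner files they equal the spot intensity minus a trimmed mean of the blank spots, scaled to an array median of 25, within 0.487%. The lowest values and missing values were left out of this comparison.

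Groups came from the sample titles. The main values used limma 3.58.1 in R 4.3.3, fitting normexp over all spots and quantile normalization over gene probes, and other steps used Python 3.11.15, numpy 2.4.6 and pandas 2.3.3. The normalization was tested on simulated data with known folds planted only in brighter probes, and the local median on a simulated trend across columns. Folds of dim probes, local background subtraction and the authors' values were not part of these tests. Probes had to exceed the 95th percentile of the blank spots on both arrays. Symbols were updated through the GRCh38.p14 RefSeq gene table, and the array files name no build. Precision is limited by 1 array per condition. Every measured member was named; spot and value table values were given for members at 1.5-fold in either set of values and for the ends of each role; up to 2 genes of each other list were named by size. Members and lists were chosen with earlier results of these data known.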

Additional observations from a re-analysis of the deposited data

How the results depend on the processing

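With 1 array per condition no alternative tests whether a difference would recur. Over 14 alternatives of processing the median log2 difference of the members stayed below 0. It was -0.12 with local background subtraction, -0.12 in the authors' value table with the position correction and -0.11 with only probes outside the last 26 columns. The count of members called lower, 3 as reported, was 6 with local background subtraction (SLC2A1, GPI, PGK1, PKM, LDHB and PGD, without SLC2A3 and PFKFB4, both short of 1.5-fold), 1 with the position correction, 1 with only probes outside the last 26 columns and 0 at 2-fold. Local background subtraction also called 1 member higher, LDHA, at 11.3. The local background exceeded the spot itself at 2 member probes on the irradiated and 3 on the untreated array, there including LDHA, which limits that setting. The cause of the other changes was not tested. SLC2A1, SLC2A3, HK2, GPI, PFKL, PFKFB4, ALDOC, TPI1, PGK1, PDK1, TKT and TALDO1, 12 members, were lower under each alternative that could be computed for them, and RPIA was higher under each. None of the 3 members called as reported changed direction. PKM and LDHB, called lower only with local background subtraction, had normalized ratios of 1.17 and 1.09 as reported. All genes called lower and higher numbered 180 and 53 as reported, 434 and 142 without background correction, 822 and 396 with offset 0, 1154 and 704 in the authors' value table, 651 and 529 in that table corrected for position, 589 and 462 with local background subtraction, 79 and 37 with the position correction, and 31 and 52 with only probes outside the last 26 columns. Dim members such as PFKFB4, PDK1 and SLC16A1 are limited by their closeness to the blank spots.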

Other observations

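The medians of the genes downstream of pyruvate lay closer to 1 once position on the chip was taken into account. Of 12 genes of pyruvate entry into mitochondria 11 were detected, 8 lower and 3 higher, with a median ratio of 0.903, beside 44.5% of all genes lower. With the local trend across the chip taken off, 7 were lower and 4 higher, with a median of 0.982, beside 49.2% of all genes lower. PDK4, another pyruvate dehydrogenase kinase, read 124 units in irradiated and 228 units in untreated cells in column 104, a normalized ratio of 0.660, and 0.736 with the local trend across the chip taken off. DLAT, the acetyltransferase subunit of pyruvate dehydrogenase, had ratios of 0.703 and 0.745 in the same order of settings, in column 91. Of 14 genes of the tricarboxylic acid cycle 13 were detected, 8 lower and 5 higher, with a median ratio of 0.930. The count was 7 lower and 6 higher (median 0.966) with the local trend taken off, and 4 lower and 9 higher (median 1.02) in the authors' values corrected in the same way. ACO1, the cytosolic aconitase that also binds iron-responsive elements, had a ratio of 0.584 over probes in columns 47 and 103, and 0.648 with the local trend taken off. CS, the citrate synthase, had 0.727 in column 92 and 0.843 after that correction.

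The 6 mesenchymal and basal markers had a median ratio of 0.938 and the 4 detected luminal and epithelial markers 0.985. The 5 detected markers of other cell types had a median ratio of 0.924, and 1.07 with the local trend taken off. In the authors' values the median was 0.418, and 0.649 with that correction. In the authors' values without it 3 were called lower (PDGFRB, PECAM1 and CDH5), beside 6.49% of all genes. PECAM1 read 18.8 units in irradiated and 27.8 units in untreated cells, in column 104. CDH5 read 17.0 and 21.2 in the same order, in column 99. Both were close to the 95th percentile of the blank spots, at 16.0 on the irradiated and 14.2 on the untreated array. The part of other cell types in the results was not tested.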
